A study of Mus musculus with 3 samples.

Results

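The genes described here are 9 regulators, receptors and cytokines of helper-type innate lymphoid cells: the transcription factors Rora and Gata3, the receptor chains Il23r, Il1rl1 and Il17rb, and the cytokines Il22, Il17a, Il5 and Il13. They were taken by gene symbol, and all 9 were found among the 37224 Ensembl genes counted. RNA was sequenced from leukocytes sorted out of the gut epithelium of RAG-2 null mice, which cannot assemble antigen receptors and so lack mature T and B cells but keep innate lymphoid and myeloid cells. All 3 groups carry that genotype. The iCD8a library came from CD45-positive cells with CD8alpha on their surface, the ILC1 library from cells positive for NKp46 and NK1.1 (group 1 innate lymphoid cells), and the CD11b+ library from CD45-positive, CD8alpha-negative, CD11b-positive myeloid cells. Each group is 1 library, so no difference below has a replicate check and none carries a p-value. The labels give no age or sex for the mice and do not say whether animals were pooled.

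Innate lymphoid cells respond to cytokines in place of antigen. ILC2 depend on GATA3 and RORα, are switched on by the epithelial alarmins IL-33 and IL-25, and are known for making IL-5 and IL-13, which recruit eosinophils and drive mucus. ILC3 respond to IL-23 and IL-1β from myeloid cells, and are known in the gut for IL-22, which acts on epithelium, and for IL-17A, which draws neutrophils.

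Counts on genes totalled 21678113 in iCD8a, 22181660 in ILC1 and 30511296 in CD11b+. No library held a count of Rag2 (0 in each), a weak check of the genotype because mature leukocytes carry little of it in any mouse. Of the sort markers, Cd8a stood at 2636 CPM in iCD8a cells, 4.41 CPM in ILC1 and 28.3 CPM in CD11b+. Klrb1c, which encodes NK1.1, stood at 207 CPM in iCD8a cells, 546 CPM in ILC1 and 14.7 CPM in CD11b+, so it was only 2.63-fold lower in iCD8a than in ILC1 (2.55 to 2.72). Ncr1, which encodes NKp46, stood at 1.44 CPM in iCD8a cells, 396 CPM in ILC1 and 2.23 CPM in CD11b+. Itgam, which encodes CD11b, was highest in CD11b+ at 845 CPM but was also counted in iCD8a at 362 CPM and in ILC1 at 187 CPM. Levels are CPM, the counts of a gene per 1000000 gene counts with library sizes scaled by TMM, and a range in parentheses is a 95% exact interval for counting error, with no part for variation between mice. In such bulk samples, fewer cells of a type and less RNA per cell cannot be told apart.

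The 9 genes fell into an abundant set and a scarce set. Rora, Gata3 and Il22 were the most abundant, with highest levels of 487, 114 and 83.1 CPM, Il23r reached 9.18 CPM, and the other 5 stayed below 5 CPM in every library. The summed level of the 9 genes was 61.5 CPM in iCD8a cells, 696 CPM in ILC1 and 76.6 CPM in CD11b+. Rora made up most of the sum in ILC1, Gata3 most of it in iCD8a and Il22 most of it in CD11b+, so each library had a different leading member by CPM. Scaled to exon length, Il22 led in ILC1 (74.9 CPM per kilobase) and in CD11b+ (39.8 CPM per kilobase), and Gata3 led in iCD8a (11.5 CPM per kilobase).

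**Figure D1:**
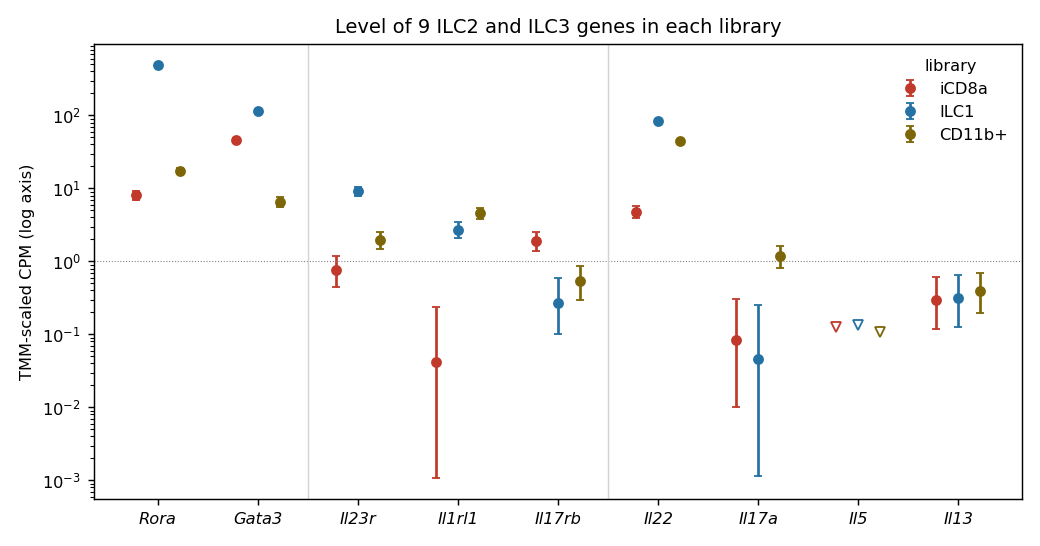
TMM-scaled CPM on a log axis for the 9 genes in the iCD8a, ILC1 and CD11b+ libraries, with 1 library per group. Points are levels, bars are 95% exact Poisson intervals, open triangles mark the limit that 0 counts allow, and the dotted line marks 1 CPM. Rora spans 8.04 to 487 CPM between libraries, while Il13 lies below 1 CPM in each and Il5 has 0 counts in each.

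Rora encodes RORα, a nuclear receptor needed for ILC2 development and expressed in other innate lymphoid cells. It had 190 counts in iCD8a, 10713 counts in ILC1 and 488 counts in CD11b+, which is 8.04 CPM (6.94 to 9.27) in iCD8a cells, 487 CPM (478 to 496) in ILC1 and 17.3 CPM (15.8 to 18.9) in CD11b+. The ILC1 library stood alone: 99.1% of all genes were below Rora there, against 76.3% in iCD8a and 80.4% in CD11b+. Rora was 60.5-fold lower in iCD8a than in ILC1 (52.5 to 70.3) and 28.1-fold higher in ILC1 than in CD11b+ (25.7 to 30.9). Between iCD8a and CD11b+ the difference was smaller, 2.15-fold lower in iCD8a (1.82 to 2.56).

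Gata3 encodes the zinc finger factor that directs ILC2 and T helper type 2 cells and is needed more widely for innate lymphoid cells. It had 1077 counts in iCD8a, 2509 counts in ILC1 and 184 counts in CD11b+. Its level was 45.6 CPM (42.9 to 48.4) in iCD8a cells, 114 CPM (110 to 119) in ILC1 and 6.52 CPM (5.61 to 7.54) in CD11b+. Unlike Rora, Gata3 had its second highest level in iCD8a, 6.99-fold above CD11b+ (5.97 to 8.22) and 2.50-fold below ILC1 (2.33 to 2.69). The ratio of Rora to Gata3 per kilobase of exon was 0.0537 in iCD8a (0.0458 to 0.0627), 1.30 in ILC1 (1.24 to 1.36) and 0.807 in CD11b+ (0.680 to 0.962).

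To be called apart between 2 libraries, a gene needed a 4-fold difference, an interval whose nearer end lay at 2-fold or beyond, and 5 CPM or more in the higher library. Among all 13649 genes that reached 1 CPM anywhere, 6.23% were called apart between iCD8a and ILC1, 3.62% lower in iCD8a and 2.61% higher. Of the 9 genes, 3 were lower (Rora, Il22 and Il23r) and 0 were higher. In iCD8a against CD11b+, 15.5% of all genes were called apart, 4.86% higher and 10.6% lower, and of the 9 genes 1 was higher (Gata3) and 1 was lower (Il22). In ILC1 against CD11b+, 14.9% were called apart, 4.73% higher and 10.2% lower, and of the 9 genes 3 were higher (Rora, Gata3 and Il23r) and 0 were lower. Only 7 of the 9 reached 1 CPM anywhere, and the 5 scarce genes could not be called because they lie below 5 CPM. With the minimum set to 1 CPM, Il17rb was also called higher in iCD8a than in ILC1, as were 4.21% of all genes. Under that minimum Il1rl1 was also lower in iCD8a than in ILC1 (5.50% of all genes), Il17a and Il1rl1 were also lower in iCD8a than in CD11b+ (16.0%), and Il17a was lower in ILC1 than in CD11b+ (15.1%). With the minimum set to 10 CPM, Il23r was no longer called, in iCD8a against ILC1 (2.91% of all genes lower) or in ILC1 against CD11b+ (3.98% higher). With the fold set to 8, Gata3 was no longer called higher in iCD8a than in CD11b+. There 9.53% of all genes were called in either direction, 273 higher and 1028 lower. Il23r was no longer called higher in ILC1 than in CD11b+, where 9.08% were called, 297 higher and 943 lower. With a fold of 2 and a near bound of 1, Rora was also called lower in iCD8a than in CD11b+, as were 16.3% of all genes.

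**Figure D2:**
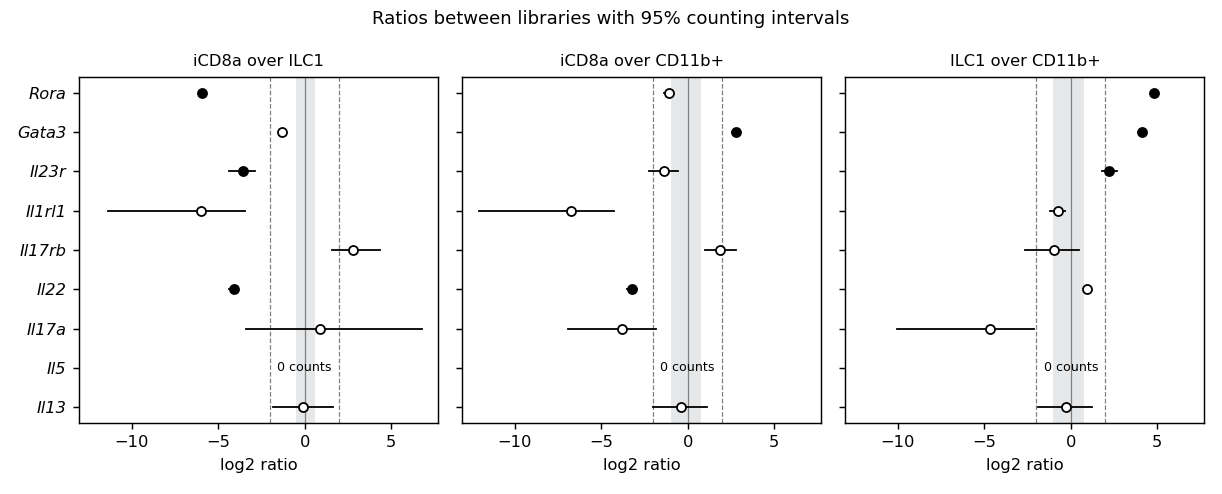
Log2 ratios between libraries (x axis) for the 9 genes (y axis), in panels for iCD8a over ILC1, iCD8a over CD11b+ and ILC1 over CD11b+. Bars are 95% counting intervals, filled points were called apart, dashed lines mark a 4-fold difference and the grey band holds the interquartile range of all 13649 genes. Rora, Il23r and Il22 lie left of the band in iCD8a over ILC1, as do Gata3 and Il1rl1, which were not called. The intervals of Il17a, Il1rl1, Il17rb and Il13 are wide because they rest on few counts.

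Il22 encodes IL-22, the cytokine by which ILC3 and some natural killer-like cells act on gut epithelium. It had 114 counts in iCD8a, 1829 counts in ILC1 and 1246 counts in CD11b+, or 4.82 CPM (3.98 to 5.80) in iCD8a cells, 83.1 CPM (79.3 to 87.0) in ILC1 and 44.2 CPM (41.7 to 46.7) in CD11b+. The myeloid sort thus held more Il22 than the iCD8a sort. Il22 was 17.2-fold lower in iCD8a than in ILC1 (14.3 to 21.0) and 9.16-fold lower in iCD8a than in CD11b+ (7.55 to 11.2), whereas ILC1 exceeded CD11b+ by 1.88-fold (1.75 to 2.02), short of the 4-fold rule.

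Il17a encodes IL-17A, the other hallmark cytokine of ILC3. It had 2 counts in iCD8a, 1 count in ILC1 and 33 counts in CD11b+, so its order differed from that of Il22. The level in CD11b+ was 1.17 CPM (0.805 to 1.64). ILC1 over CD11b+ gave a ratio of 0.0388 (0.000955 to 0.232), and iCD8a over CD11b+ gave 0.0724 (0.00841 to 0.283). The ratio of iCD8a to ILC1, 1.86, had an interval from 0.0970 to 110 and sets no order between them. Il17f, its closest relative, followed it with 1 count in iCD8a, 0 counts in ILC1 and 27 counts in CD11b+.

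Il23r encodes the IL-23-specific receptor chain, which sustains Il22 and Il17a expression in ILC3. It had 18 counts in iCD8a, 202 counts in ILC1 and 55 counts in CD11b+. Its level was 0.762 CPM (0.451 to 1.20) in iCD8a cells, 9.18 CPM (7.96 to 10.5) in ILC1 and 1.95 CPM (1.47 to 2.54) in CD11b+. It was 12.1-fold lower in iCD8a than in ILC1 (7.43 to 20.7) and 4.71-fold higher in ILC1 than in CD11b+ (3.48 to 6.46). Il12rb1, which encodes the chain that the IL-23 and IL-12 receptors share, was at 146 CPM in iCD8a cells, 140 CPM in ILC1 and 18.2 CPM in CD11b+. Il12rb2, the IL-12-specific chain, was at 397 CPM in iCD8a cells, 882 CPM in ILC1 and 58.3 CPM in CD11b+. Per kilobase, Il12rb2 exceeded Il23r by 342-fold in iCD8a (216 to 577), by 63.0-fold in ILC1 (54.9 to 72.8) and by 19.6-fold in CD11b+ (15.0 to 26.2).

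Because RORα binds the core motif AGGTCA and GATA3 binds GATA cores, the upstream windows of Il22, Il17a and Il23r are shown as the mouse reference has them (RefSeq, GRCm38.p6, 250 bases ending at the annotated start, in the direction of transcription). They are chr10:118204714-118204963 on the plus strand for Il22, chr1:20730655-20730904 on the plus strand for Il17a and chr6:67491856-67492105 on the minus strand for Il23r. Capitals mark AGGTCA or GATAA on either strand, none of which overlap.
Il22: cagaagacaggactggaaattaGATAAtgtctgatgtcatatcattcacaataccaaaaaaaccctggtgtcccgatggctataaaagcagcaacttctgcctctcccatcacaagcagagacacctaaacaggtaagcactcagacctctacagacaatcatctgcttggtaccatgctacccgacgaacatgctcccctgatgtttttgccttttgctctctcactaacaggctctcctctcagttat
Il17a: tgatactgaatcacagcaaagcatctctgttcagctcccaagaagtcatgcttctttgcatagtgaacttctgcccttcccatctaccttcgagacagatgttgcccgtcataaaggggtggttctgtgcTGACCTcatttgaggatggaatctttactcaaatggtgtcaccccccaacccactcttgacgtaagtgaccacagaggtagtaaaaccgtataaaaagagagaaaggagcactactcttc
Il23r: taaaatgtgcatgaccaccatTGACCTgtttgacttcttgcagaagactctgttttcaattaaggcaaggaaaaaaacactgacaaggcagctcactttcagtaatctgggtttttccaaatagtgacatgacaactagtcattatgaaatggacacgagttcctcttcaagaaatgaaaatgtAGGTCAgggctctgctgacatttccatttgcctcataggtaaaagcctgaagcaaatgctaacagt

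AGGTCA was found 1 time in the Il17a window, starting 120 bases before the start, 2 times in the Il23r window, at 229 and 66 bases, and 0 times in the Il22 window, which holds 1 GATAA at 228 bases. Among 32851 mouse windows of the same length, 14.0% hold AGGTCA and 22.6% hold GATAA. Over the 10 windows of the 9 genes, of which Il1rl1 has 2, 3 held AGGTCA (Il17a, Il23r and 1 of Il1rl1) and 4 held GATAA (Il22, Il13 and both of Il1rl1). The STAT motif TTCNNNGAA, found in 7.02% of windows, occurred in 0 of the 10. A match is a description of letters, and no binding was measured.

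Pairs of these genes were also compared within a library, per kilobase of exon. Il22 over Il23r, a cytokine over the receptor that sustains it, was 14.2 in iCD8a (8.59 to 24.8), 20.3 in ILC1 (17.5 to 23.6) and 50.8 in CD11b+ (38.8 to 67.8). The intervals of iCD8a and ILC1 overlap, and CD11b+ lies above both. Rora over Il22 was 0.142 in iCD8a (0.112 to 0.180), 0.497 in ILC1 (0.473 to 0.523) and 0.0333 in CD11b+ (0.0299 to 0.0370), with no overlap between libraries. ILC1 thus exceeded CD11b+ by 1.88-fold for Il22, against 28.1-fold for Rora.

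**Figure D3:**
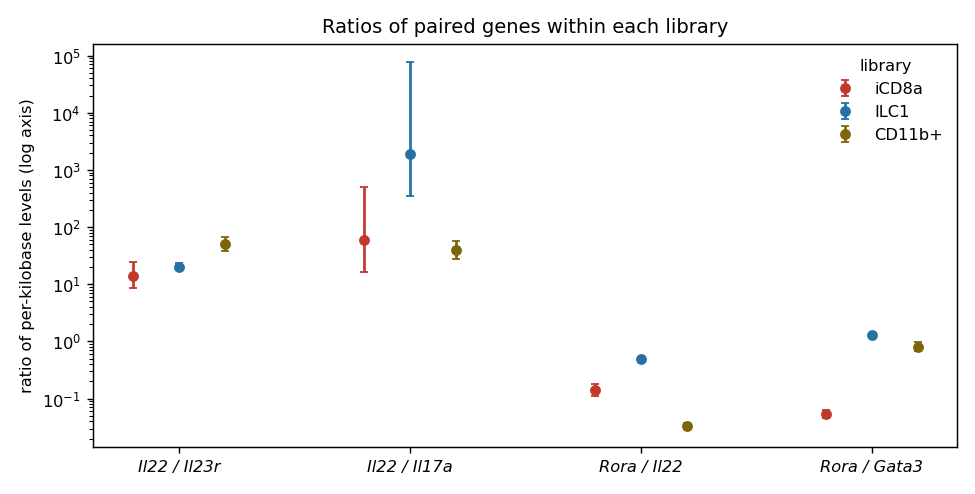
Ratio of per-kilobase levels of 4 gene pairs (log axis) within the iCD8a, ILC1 and CD11b+ libraries. Points are ratios and bars are 95% exact counting intervals. Il22 over Il23r lies between 14.2 and 50.8 in the 3 libraries, Rora over Il22 is highest in ILC1 at 0.497, and the bars of Il22 over Il17a are wide because Il17a has few counts.

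Genes were also ranked by how closely their log2 levels over the 3 libraries followed each abundant member, among protein-coding genes of like maximum level. With 3 points per gene this is a loose measure. Among 7043 candidates, those near Il22 included Areg (distance 0.16 log2 units), which encodes the epithelial growth factor amphiregulin (3.39 CPM in iCD8a cells, 57.5 CPM in ILC1 and 26.8 CPM in CD11b+), and Lmna. Nearest to Rora among 2553 candidates were Icos, a costimulatory receptor (3.05 CPM in iCD8a cells, 192 CPM in ILC1 and 5.85 CPM in CD11b+), Il2ra, the high-affinity interleukin 2 receptor chain, and Gramd3. Nearest to Gata3 among 6456 candidates were Gzmc, a granzyme gene with similar copies (179 CPM in iCD8a cells, 450.4 CPM in ILC1 and 24.8 CPM in CD11b+), Pear1 and Plscr4. Within a distance of 0.5 lay 4 genes for Rora, 21 genes for Gata3 and 7 genes for Il22.

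The ILC2 cytokines were scarce. Il5, the eosinophil growth factor, had 0 counts in every library, a limit of 0.127 CPM in iCD8a cells, 0.136 CPM in ILC1 and 0.106 CPM in CD11b+ when 3 counts are taken as the floor. Il13, the cytokine that drives goblet cells and mucus, had 7 counts in iCD8a, 7 counts in ILC1 and 11 counts in CD11b+, from 0.296 CPM in iCD8a to 0.390 CPM in CD11b+. The 3 intervals overlap, and no difference in Il13 was detectable at this depth. Il4 had 12 counts in iCD8a, 10 counts in ILC1 and 47 counts in CD11b+, and Il9 had 0 counts in each library.

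Il1rl1 encodes ST2, the IL-33 receptor, found on ILC2, mast cells and some other leukocytes. It had 1 count in iCD8a, 60 counts in ILC1 and 130 counts in CD11b+, and its level was 0.0423 CPM (0.00107 to 0.236) in iCD8a cells, 2.73 CPM (2.08 to 3.51) in ILC1 and 4.61 CPM (3.85 to 5.47) in CD11b+. The iCD8a library was below both others, with ratios of 0.0155 to ILC1 (0.000387 to 0.0898) and 0.00918 to CD11b+ (0.000231 to 0.0521). ILC1 over CD11b+ was 0.592 (0.428 to 0.809). Counts per gene do not separate the membrane form from the soluble decoy form. Il1rap, the shared signalling partner of ST2, was near level, at 15.8 CPM in iCD8a cells, 10.7 CPM in ILC1 and 11.1 CPM in CD11b+.

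Il17rb encodes the IL-25-specific receptor chain, also a marker of ILC2. It was the only one of the 9 with its highest level in iCD8a: 45 counts in iCD8a, 6 counts in ILC1 and 15 counts in CD11b+. Its level was 1.90 CPM (1.39 to 2.55) in iCD8a cells, 0.273 CPM (0.100 to 0.593) in ILC1 and 0.532 CPM (0.298 to 0.877) in CD11b+. The ratio of iCD8a to ILC1 was 6.98 (2.97 to 20.0) and that of iCD8a to CD11b+ was 3.58 (1.96 to 6.92). ILC1 and CD11b+ did not differ beyond counting error, with a ratio of 0.513 (0.163 to 1.40). Its exons share 141 bases with Actr8 on the other strand, which had 759 counts in iCD8a, 581 counts in ILC1 and 505 counts in CD11b+, so reads from that stretch may not be assigned cleanly without a stated strand setting. Il17ra, the common chain of the IL-17 receptors, was at 34.2 CPM in iCD8a cells, 99.2 CPM in ILC1 and 147 CPM in CD11b+. Of 12 partner chains and proximal signalling genes of these receptors, 0 were called apart between iCD8a and ILC1 (6.23% of all genes). In iCD8a against CD11b+ 2 were called higher (Il12rb1 and Il12rb2) and 1 lower (Il17ra), against 4.86% and 10.6% of all genes. In ILC1 against CD11b+ 3 were called higher (Traf3ip2 in addition to those 2) and 0 lower, against 4.73% and 10.2% of all genes.

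Other genes of the ILC3 program leaned the same way as Il22 and Il23r in iCD8a. Of 19 listed, 12 were called lower in iCD8a than in ILC1 (3.62% of all genes) and 0 higher (2.61%). The median log2 ratio over the 18 with at least 1 CPM was −3.35, beside 0.04 over all genes. Tmem176b, a membrane protein gene that ILC3 express strongly, was at 1.82 CPM in iCD8a cells, 93.9 CPM in ILC1 and 109 CPM in CD11b+. Tnfsf11, which encodes RANKL, was at 0.169 CPM in iCD8a cells, 15.4 CPM in ILC1 and 2.30 CPM in CD11b+. Ncr1 is in this list and is also the sort marker of the ILC1 library, and so follows the gate by construction. In iCD8a against CD11b+, 7 of 19 were lower (10.6% of all genes) and 0 higher (4.86%). The 7 included Tmem176a, Tmem176b and Ffar2, a short-chain fatty acid receptor (0.508 CPM in iCD8a and 83.7 CPM in CD11b+). The median log2 ratio was −2.50, beside 0.04 over all genes. The list is not limited to genes that only ILC3 express. Which cells of the CD11b+ sort carried these genes was not tested. In ILC1 against CD11b+ the list was split, with 7 of 19 higher, such as Tnfrsf25, Ltb and Csf2, and 3 lower (Ffar2, Nrp1 and Cd4). The shares of all genes were 4.73% higher and 10.2% lower. The median log2 ratio of the list was 0.52, beside 0.00 over all genes.

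The ILC2 program beyond the 9 genes was divided. Of 20 listed, 4 were called lower in iCD8a than in ILC1 (Il2ra, Icos, Areg and Calca) and 0 higher, against 3.62% and 2.61% of all genes. The median log2 ratio was −1.13 over the 18 with at least 1 CPM. In iCD8a against CD11b+, 5 were higher (4.86% of all genes) and 3 lower (10.6%). In ILC1 against CD11b+, 7 were higher (4.73% of all genes) and 2 lower (10.2%). The members higher in iCD8a than in CD11b+ included Vipr2, a receptor for vasoactive intestinal peptide (40.4 CPM in iCD8a and 1.88 CPM in CD11b+), and Gfi1, a zinc finger repressor (102 CPM in iCD8a and 9.61 CPM in CD11b+). Calca, the gene of the neuropeptide CGRP, was at 5.25 CPM in iCD8a cells, 28.5 CPM in ILC1 and 0.957 CPM in CD11b+. Several of these genes, Icos and Il2ra among them, are also expressed by other lymphocytes. The more selective Ptgdr2 and Nmur1 had 2 and 25 counts in iCD8a, 2 and 8 counts in ILC1, and 35 and 60 counts in CD11b+.

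**Figure D4:**
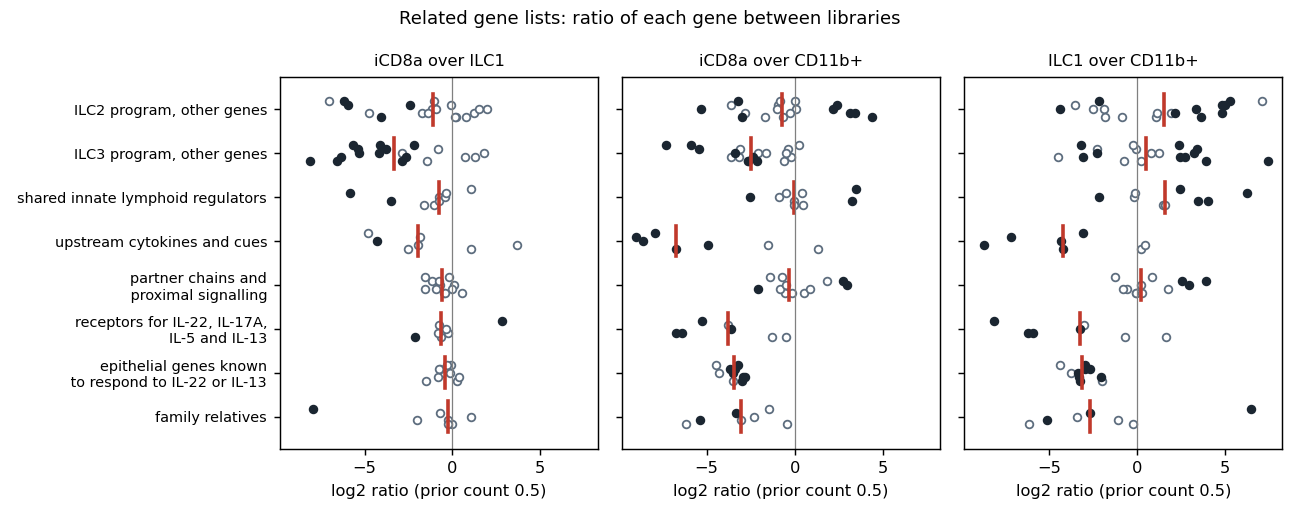
Log2 ratio (prior count 0.5) of each gene in 8 related lists, in panels for iCD8a over ILC1, iCD8a over CD11b+ and ILC1 over CD11b+, for genes that reached 1 CPM in a library. Filled points were called apart, open points were not, and red bars are list medians. The ILC3 list has its median at −3.35 in iCD8a over ILC1, and the upstream cytokines have theirs at −6.73 in iCD8a over CD11b+.

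Of 13 cytokines and cues that act upstream of innate lymphoid cells, 5 were called lower in iCD8a than in CD11b+ (Il1a, Il1b, Il6, Il12b and Il23a) and 5 lower in ILC1 than in CD11b+, with all 5 shared, and 0 were higher in iCD8a or in ILC1. Between iCD8a and ILC1, 1 was called lower in iCD8a (Il1a) and 0 higher, against 3.62% and 2.61% of all genes. The shares of all genes called lower than in CD11b+ were 10.6% for iCD8a and 10.2% for ILC1, and those called higher were 4.86% and 4.73%. Il23a, the IL-23-specific subunit, had 2 counts in iCD8a, 13 counts in ILC1 and 311 counts in CD11b+ (11.0 CPM). Il12b, its partner subunit, had 6 counts in iCD8a, 0 counts in ILC1 and 231 counts in CD11b+ (8.19 CPM). Il1b was at 5.25 CPM in iCD8a cells, 18.8 CPM in ILC1 and 2694 CPM in CD11b+. The ILC2-activating cues were scarce: Il33 had 5 counts in iCD8a, 4 counts in ILC1 and 15 counts in CD11b+, Tslp had 0 counts in iCD8a, 0 counts in ILC1 and 5 counts in CD11b+, and Il25 had 0 counts in each. Others of the 13 had their highest level outside CD11b+: Tgfb1, which encodes TGF-β1, was at 292 CPM in iCD8a cells, 1134 CPM in ILC1 and 838 CPM in CD11b+. Il7, the lymphocyte survival cytokine, was at 3.17 CPM in iCD8a cells, 1.50 CPM in ILC1 and 1.28 CPM in CD11b+, and neither gene was called.

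Of 9 receptor genes for the 4 cytokines, 4 were called lower in iCD8a than in CD11b+, the same 4 were called lower in ILC1 than in CD11b+ (Il22ra2, Il17rc, Csf2rb and Il13ra1), and 0 were higher. Between iCD8a and ILC1, 1 was called higher in iCD8a (Csf2rb) and 1 lower (Il4ra), against 2.61% and 3.62% of all genes. The shares of all genes called lower than in CD11b+ were 10.6% for iCD8a and 10.2% for ILC1. Il22ra2, which encodes the soluble IL-22 binding protein that blocks the cytokine, had 10 counts in iCD8a, 11 counts in ILC1 and 1055 counts in CD11b+. It was 88.4-fold lower in iCD8a than in CD11b+ (47.9 to 185) and 74.8-fold lower in ILC1 than in CD11b+ (41.6 to 150.3). Il22ra1, the signalling receptor chain of epithelial cells, had 1 count in iCD8a, 0 counts in ILC1 and 26 counts in CD11b+, while its partner Il10rb was at 25.3 CPM in iCD8a cells, 39.4 CPM in ILC1 and 62.1 CPM in CD11b+. Il13ra1, an IL-13 receptor chain, was at 0.889 CPM in iCD8a cells, 1.59 CPM in ILC1 and 98.1 CPM in CD11b+. Il5ra had 3 counts in iCD8a, 5 counts in ILC1 and 56 counts in CD11b+. Epithelial genes known to respond to IL-22 or IL-13 were lower in iCD8a than in CD11b+ for 7 of 11 (10.6% of all genes). The same 7 were lower in ILC1 than in CD11b+ (10.2% of all genes). Of 8 general epithelial markers, 5 were called lower in iCD8a than in CD11b+ and 6 lower in ILC1 than in CD11b+, with 0 higher. Whether the 7 genes followed epithelial RNA in the sorts was not tested. Reg3g, an antimicrobial lectin, was at 34.2 CPM in iCD8a cells, 26.9 CPM in ILC1 and 265 CPM in CD11b+.

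Marker genes of other cell types varied by library too, and several lists did not follow the summed level of the 9 genes. Their part in the differences was not tested. The 8 natural killer and ILC1 markers summed to 610 CPM in iCD8a cells, 2672 CPM in ILC1 and 76.4 CPM in CD11b+. Ncr1 was 177-fold higher in ILC1 than in CD11b+ (139 to 231). Ncr1 and Klrb1c encode the sort markers of the ILC1 library, so their ratios follow the gate. Over the 8 markers, the excess in ILC1 over CD11b+ ran from 10.8-fold (Prf1) to 456-fold (Klra4). The 7 T cell markers summed to 2879 CPM in iCD8a cells, 70.6 CPM in ILC1 and 245 CPM in CD11b+, with Cd3g making up most of the sum in each and Foxp3 at 6 counts in iCD8a, 4 counts in ILC1 and 3 counts in CD11b+. The 10 mast cell markers, of interest because mast cells express Il1rl1 and Gata2, summed to 10.5 CPM in iCD8a cells, 17.9 CPM in ILC1 and 136 CPM in CD11b+. Hdc, Mcpt1 and Mcpt2 made up nearly all of the CD11b+ sum, and the tryptases Tpsb2 and Tpsab1 had 6 and 9 counts there and 0 counts in iCD8a and in ILC1. Cpa3 and Cma1 were not highest in CD11b+. Cpa3 was at 3.94 CPM in iCD8a and 1.95 CPM in CD11b+, and Cma1 had 109 counts in ILC1 and 5 counts in CD11b+. The 6 eosinophil markers summed to 1.06 CPM in iCD8a cells, 42.5 CPM in ILC1 and 206 CPM in CD11b+, with Epx and Prg2 at 0 counts in iCD8a and in ILC1. Alox15 gave 41.5 CPM of the ILC1 sum, and without it the sums were 0.762 CPM in iCD8a cells, 1.00 CPM in ILC1 and 141 CPM in CD11b+. Basophil markers summed to 3.94 CPM in iCD8a cells, 0.863 CPM in ILC1 and 2.13 CPM in CD11b+, with Prss34 at 0 counts in each. Cd200r3 gave most of each sum, and without it the sums were 0.127 CPM in iCD8a cells, 0.0909 CPM in ILC1 and 0.815 CPM in CD11b+.

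The 8 macrophage markers summed to 30.8 CPM in iCD8a cells, 346 CPM in ILC1 and 7140 CPM in CD11b+, with Lyz2 giving most of the sum in ILC1 and in CD11b+. The 8 dendritic cell markers summed to 952 CPM in iCD8a cells, 1128 CPM in ILC1 and 10113 CPM in CD11b+. Itgax, also carried by many lymphocytes of the gut, gave most of the iCD8a and ILC1 sums. Flt3, Clec9a and Cd209a were called higher in iCD8a than in ILC1 (2.61% of all genes), with Flt3 at 35.1 CPM in iCD8a and 0.682 CPM in ILC1. Against CD11b+, Clec9a was called higher in iCD8a (4.86% of all genes). Flt3, Zbtb46, Cd209a, Ccr7 and H2-Ab1 were called lower in iCD8a than in CD11b+ (10.6%), with Flt3 at 280 CPM in CD11b+. Zbtb46 was called lower in iCD8a than in ILC1 (3.62% of all genes), at 3.05 CPM in iCD8a and 92.2 CPM in ILC1. Neutrophil markers summed to 3.89 CPM in iCD8a cells, 9.41 CPM in ILC1 and 146 CPM in CD11b+, with Elane and Ly6g at 0 counts in each. Csf3r gave 130 CPM of the CD11b+ sum, and without it the sums were 3.05 CPM in iCD8a cells, 5.04 CPM in ILC1 and 16.0 CPM in CD11b+. The 6 plasmacytoid dendritic cell markers summed to 1116 CPM in iCD8a cells, 1272 CPM in ILC1 and 389 CPM in CD11b+. Irf8, a factor found in many leukocytes, made up 1183 CPM of the ILC1 sum, and without it the sums were 647 CPM in iCD8a cells, 88.6 CPM in ILC1 and 150.0 CPM in CD11b+. Siglech, Spib and Ly6d were called higher in iCD8a than in ILC1 (2.61% of all genes), with Siglech at 224 CPM in iCD8a and 0.954 CPM in ILC1. Epithelial markers summed to 754 CPM in iCD8a cells, 390 CPM in ILC1 and 856 CPM in CD11b+, but the members ran in different directions. Cdh1, Cdh17 and Epcam, which encode adhesion proteins, made up most of the iCD8a sum. The other 5 (Vil1, Krt8, Krt18, Krt19 and Krt20) were each called lower in iCD8a than in CD11b+ (10.6% of all genes). Krt8 was at 19.3 CPM in iCD8a cells, 23.4 CPM in ILC1 and 186 CPM in CD11b+. Avil carried nearly all of the tuft cell sum, 364 CPM in iCD8a cells, 81.7 CPM in ILC1 and 42.0 CPM in CD11b+, and Pou2f3, the defining factor of tuft cells, had 0 counts in iCD8a, 0 counts in ILC1 and 2 counts in CD11b+. B cell markers summed to 0.719 CPM in iCD8a cells, 0.227 CPM in ILC1 and 1.17 CPM in CD11b+, with Pax5 at 0 counts in each.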

How the data were processed

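RNA was measured in 3 libraries, 1 for each sorted population, grouped by their cell type label. The deposited values are raw counts per Ensembl gene. HTSeq made them from HiSeq reads that the authors aligned by TopHat, per the design text of the series, and CASAVA 1.9 and TopHat2 appear in the submitters' processing notes. Genome build, annotation and strand setting: not given in the sources used here. Library sizes leave out 5 closing rows that name no gene. Of all rows, multi-mapped alignments took 26.9% (iCD8a), 34.5% (ILC1) and 30.5% (CD11b+), reads outside genes 9.31%, 11.0% and 8.56%, and ambiguous reads 1.08%, 0.889% and 0.922%. The mitochondrial genome supplied 1.60% (iCD8a), 2.09% (ILC1) and 9.53% (CD11b+) of gene counts.

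GENCODE M21 gave symbols and exon-union lengths for 35449 of 37224 IDs; another annotation can shift per-kilobase levels. TMM factors (edgeR 4.0.16, R 4.3.3) stood at 1.09 (iCD8a), 0.992 (ILC1) and 0.925 (CD11b+). Ratios carry exact conditional binomial (Clopper-Pearson) intervals and levels carry exact Poisson intervals at 95% (scipy 1.17.1, numpy 2.4.6, pandas 2.3.3, Python 3.11.15; matplotlib 3.10.9 for figures). As reads carry no molecular identifiers, these intervals and the 3-count floor hold for counting error alone. No p-value was computed: with single libraries, edgeR and DESeq2 1.42.0 served for scaling. Intervals and calls were tested on simulated Poisson counts with known library sizes. That simulation held no variation between mice or sorts, so it cannot show whether the calls would repeat. List medians used a prior count of 0.5 and genes that reached 1 CPM in a library.

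The 9 genes, 8 related lists (107 symbols, all matched) and 12 marker lists (81 symbols, all matched) were chosen with earlier results of these data known. Named were the 9 genes, fixed partner genes (among them Il17f, Il1rap, Il17ra, Il12rb1, Il22ra2, Il4, Il9, Il33, Il25 and Tslp), for each list, pair and direction up to 4 genes whose interval lay farthest from no difference, and the 3 genes nearest in profile to each of the 9 that reached 10 CPM. Other genes named as examples (Il12rb2 per kilobase, Ptgdr2, Nmur1, relatives in the closing section and single markers) were chosen after their values were seen. Motifs were searched in the 250 bases before each RefSeq start (GRCm38.p6), on both strands. Alternatives were other scalings, thinning to 21678113 counts per library, removal of the 37 mitochondrially encoded genes, and other folds, CPM minimums and prior counts. A gene these rules also name is not reported here.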

Additional observations from a re-analysis of the deposited data

How the results depend on the processing

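No paired analysis was possible because each group has 1 library, and for the same reason no library could be left out. The direction of every log2 ratio called among the 9 genes held under the 5 other scalings, depths and gene sets. Without TMM the median log2 ratio of all genes moved to 0.18 (iCD8a over ILC1), 0.28 (iCD8a over CD11b+) and 0.10 (ILC1 over CD11b+), against 0.04, 0.04 and 0.00 with it; Gata3 then stood at −1.19 for iCD8a over ILC1, against −1.32. Depth limits Il17a, Il1rl1, Il17rb, Il13 and Il5, which rest on few counts. The counts that follow moved by over 1.5 times; the cause was not tested. Shares of all genes called in either direction stand beside the changed rules, for iCD8a over ILC1, iCD8a over CD11b+ and ILC1 over CD11b+ in that order, against 6.23%, 15.5% and 14.9% under the main rule.

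Without TMM, 1 ILC2 gene (Hpgds) was higher in iCD8a than in ILC1 (0 with TMM), 1 was lower in ILC1 than in CD11b+ (2 with TMM), and 0 partner chains were lower in iCD8a than in CD11b+ (1 with TMM). With upper-quartile factors 2 upstream cytokines were lower in iCD8a than in ILC1, against 1. With thinned libraries 1 ILC2 gene was higher in iCD8a than in ILC1, and 1 was lower in ILC1 than in CD11b+.

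With a fold of 2 and a near bound of 1 together (15.1%, 29.5% and 29.9% of all genes), 2 of the 9 genes (Rora and Il22) were lower in iCD8a than in CD11b+. In iCD8a against ILC1, the ILC2 list then had 2 higher and 7 lower, the ILC3 list 1 higher, shared regulators 1 higher and 4 lower, upstream cytokines 3 lower and partner chains 3 lower. Partner chains had 2 lower in iCD8a than in CD11b+ and 1 lower in ILC1 than in CD11b+, and 1 cytokine receptor was higher in ILC1 than in CD11b+.

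With a fold of 8 (3.71%, 9.53% and 9.08%), 0 of the 9 genes (Gata3 lost) stood higher in iCD8a than in CD11b+. Cytokine receptors had 0 higher and 0 lower in iCD8a than in ILC1. Against CD11b+, iCD8a had 3 higher in the ILC2 list, 4 lower in the ILC3 list, 0 lower among shared regulators, and 1 higher and 0 lower among partner chains. In ILC1 against CD11b+, the ILC2 list had 1 lower, the ILC3 list 4 higher, shared regulators 0 lower, partner chains 1 higher, epithelial responders 3 lower and family relatives 1 lower.

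With a minimum of 1 CPM (9.71%, 23.0% and 21.5%), 1 of the 9 genes (Il17rb) was higher in iCD8a than in ILC1, 3 were lower in iCD8a than in CD11b+ and 1 (Il17a) was lower in ILC1 than in CD11b+. Upstream cytokines had 2 lower in iCD8a than in ILC1. For iCD8a over CD11b+, the ILC3 list had 12 lower and family relatives 5 lower. In ILC1 against CD11b+, the ILC2 list had 4 lower, the ILC3 list 5 lower and family relatives 4 lower. With a minimum of 10 CPM (4.89%, 12.5% and 12.1%) Il23r lost both its calls, and the ILC2 list had 3 higher for iCD8a against CD11b+, and 1 lower for ILC1 against CD11b+. A prior count of 2 left at least 2 of the 3 nearest genes of Rora, Gata3 and Il22 as they were.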

Other observations

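Family relatives of the 9 genes were mostly scarce: of 14, 7 reached 1 CPM in a library. Of these, 1 was called lower in iCD8a than in ILC1 (Il18r1) and 0 higher, against 3.62% and 2.61% of all genes. In iCD8a against CD11b+ 2 were called lower (Gata2 and Il10) and 0 higher, against 10.6% and 4.86% of all genes. In ILC1 against CD11b+ the same 2 were called lower and 1 higher (Il18r1), against 10.2% and 4.73% of all genes. Of the relatives of IL-22, Il19, Il20 and Il24 had 0 counts in each library, while Il10 had 23 counts in iCD8a, 35 counts in ILC1 and 283 counts in CD11b+. Of the relatives of IL-17A, Il17b had 0 counts in each and Il17d had 5 counts in iCD8a, 2 counts in ILC1 and 32 counts in CD11b+. Rorb, a relative of Rora, had 4 counts in iCD8a, 5 counts in ILC1 and 1 count in CD11b+. Gata2, a factor of mast cells and basophils, had 7 counts in iCD8a, 8 counts in ILC1 and 372 counts in CD11b+, and was 44.5-fold lower in iCD8a than in CD11b+ (21.4 to 111) and 36.3-fold lower in ILC1 than in CD11b+ (18.2 to 84.6). Gata1 had 0 counts in iCD8a, 0 counts in ILC1 and 39 counts in CD11b+. Il1rl2, the IL-36 receptor chain encoded in the same family as ST2, was counted in all 3 libraries, at 10.7 CPM in iCD8a cells, 12.6 CPM in ILC1 and 14.6 CPM in CD11b+.

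Regulators shared by innate lymphoid lineages formed a list of 9. Of these, 2 were called lower in iCD8a than in ILC1 (Tcf7 and Il7r) and 0 higher, against 3.62% and 2.61% of all genes. In iCD8a against CD11b+ 2 were called higher (Tox and Ets1) and 1 lower (Runx1), against 4.86% and 10.6% of all genes. In ILC1 against CD11b+ 4 were called higher (Tcf7, Il7r, Tox and Ets1) and 1 lower (Runx1), against 4.73% and 10.2% of all genes. Id2, which all these lineages need, was at 237 CPM in iCD8a cells, 488 CPM in ILC1 and 173 CPM in CD11b+. Zbtb16, which encodes PLZF, was at 8.25 CPM in iCD8a cells, 25.4 CPM in ILC1 and 8.44 CPM in CD11b+. Tox stood highest in iCD8a, at 126 CPM against 61.7 CPM in ILC1 and 11.4 CPM in CD11b+.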
